A study of Mus musculus with 12 samples.

Results

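ADI-PEG20 alone was compared with no treatment (NT) in tumors of the mouse sarcoma line BVMA01R, using 6 of the 12 libraries of the series, 3 for each condition. The line has the genotype Myf5-Cre;p53-/-;Ass1-/-, and all tumors, treated or not, came from this line in female C57BL/6J mice. Groups treated with chloroquine (CQ), alone or together with ADI-PEG20, make up the other 6 libraries. They enter the fit that estimates the spread of every gene, and they give the effect of ADI-PEG20 in tumors that also received CQ. The comparison covers 16335 genes, each with its level in every library as read counts scaled to library size (CPM, the unit of the deposited values). Dose, treatment time and age are not in the labels, and nothing in the labels ties libraries to animals, so a p-value here measures the spread between these libraries, which may in part be technical.

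ADI-PEG20 is a pegylated arginine deiminase that converts arginine outside cells to citrulline. Cells normally rebuild arginine from citrulline with argininosuccinate synthase (Ass1) and argininosuccinate lyase (Asl), so cells without Ass1 depend on arginine from outside. When an amino acid runs short, the kinase GCN2 (gene Eif2ak4) phosphorylates the initiation factor eIF2, and translation of the transcription factor ATF4 goes up. ATF4 then drives genes for amino acid uptake, amino acid synthesis and tRNA charging.

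Ass1 (chromosome 2, 31470207 to 31520672, mm10) had 16.4, 12.7 and 8.99 CPM in the ADI-PEG20 tumors, against 6.85, 9.42 and 10.4 CPM in the NT tumors. Trp53 had 26.8, 24.2 and 26.8 CPM in the ADI-PEG20 tumors, against 13.1, 20.1 and 26.7 CPM in the NT tumors. Both deleted genes thus gave reads in every library, and a count per gene does not show which part of it was deleted or whether the reads came from host cells. Myf5, the myogenic factor whose promoter drives Cre, had 12.3, 39.4 and 16.4 CPM in the ADI-PEG20 tumors, against 54.4, 40.5 and 28.7 CPM in the NT tumors. Cdh15, a cadherin of muscle progenitors, had 298, 373 and 145 CPM in the ADI-PEG20 tumors, against 528, 341 and 426 CPM in the NT tumors. Myogenic transcripts of the line's lineage were therefore present in all 6 libraries, and both groups overlapped for these 4 genes.

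The library of ADI-PEG20 replicate 1 (ADI-PEG20 1) stood apart. Its median correlation with the other libraries was 0.920, against 0.934 to 0.965 for the other 5. The noncoding transcript Gm26917 took 22.8% of its reads, against 5.79% to 16.4% in the others. Recovered reads ran from 15501998 (NT 3) to 28410940 (ADI-PEG20 2), with 16188928 in ADI-PEG20 1, where 120 genes had no read against 7 to 43 genes in the other 5 libraries. Differences below use all 6 libraries unless a value without ADI-PEG20 1 is stated.

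After adjustment over all genes with limma, 0 genes (0.0%) had a p under 0.05, and the smallest adjusted p was 0.48. At an unadjusted p under 0.05, 845 genes were higher (5.17%) and 512 lower (3.13%) with ADI-PEG20. Higher genes made up 62.3% of these, but 51.3% (728 higher and 691 lower) once each library was centred on its own median, and 53.8% without ADI-PEG20 1 (626 higher, 3.83%, and 538 lower, 3.29%). In 910 genes every ADI-PEG20 library lay above every NT library (5.57%), and in 741 genes every one lay below (4.54%). Of the 1357 genes under that unadjusted p, 669 (49.3%) stayed under it in the same direction without ADI-PEG20 1, and none of the 1357 changed sign. The 669 genes comprised 435 higher and 234 lower genes, and 607 of them were on no stress, immune or glycolysis list. Leaving out NT 1 gave 497 higher and 285 lower genes, whereas leaving out ADI-PEG20 2 gave 1198 and 997. Without NT 2 they numbered 827 and 584, without NT 3 1250 and 716, and without ADI-PEG20 3 648 and 575. List counts without a library, given below, belong beside these totals, which move as well. With the spread estimated from the 6 libraries alone, 591 genes were higher and 247 lower. The values of single genes and lists that follow are descriptions of the size and spread of a difference, none of which passed over all genes with all 6 libraries.

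Slc7a3, a transporter of arginine, lysine and ornithine (chromosome X, 101079210 to 101086020), had the smallest p of all genes. Its level was 18.9, 45.5 and 33.1 CPM in the ADI-PEG20 tumors, against 3.50, 6.97 and 7.36 CPM in the NT tumors. The lowest ADI-PEG20 library was thus well above the highest NT library, and the log2 difference was 2.44 (SE 0.47, adjusted p = 0.48 in limma), or 2.78 without ADI-PEG20 1. The other cationic transporters were much closer between groups. Of the 7 measured, 5 were higher and 2 lower, with log2 differences down to -0.44. For 1 of the 7, every ADI-PEG20 library lay below every NT library, as in 4.54% of all genes. Slc7a1, the widely expressed arginine importer, had 85.1, 106 and 109 CPM in the ADI-PEG20 tumors, against 69.0, 77.0 and 92.7 CPM in the NT tumors, which overlap, with a log2 difference of 0.33 (SE 0.15). Slc7a2, an inducible member of the family, was higher by 0.61 on the log2 scale (SE 0.31), with overlap.

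Of 28 measured amino acid transporters, 23 were higher with ADI-PEG20, with a median log2 difference of 0.30 against -0.01 over all genes, and 6 were higher and none lower at an unadjusted p under 0.05. Without ADI-PEG20 1 the median was 0.31, with 6 higher and 1 lower, and without NT 3 it was 0.35, with 13 higher. Over all genes, 626 were higher at that p without ADI-PEG20 1 and 1250 without NT 3, against 845 with all 6 libraries. The glycine transporter Slc6a9 had 17.8, 19.6 and 25.1 CPM in the ADI-PEG20 tumors, against 9.85, 11 and 14.8 CPM in the NT tumors, without overlap (log2 difference 0.81, SE 0.23). Slc1a5, which carries glutamine and other neutral amino acids, had 136, 83.1 and 78.8 CPM in the ADI-PEG20 tumors, against 46.6, 70.1 and 64.2 CPM in the NT tumors, also without overlap. Its log2 difference of 0.70 was 0.45 without ADI-PEG20 1, its highest library. Slc36a1, a lysosomal proton-coupled exporter of small amino acids, was higher by 0.62 (SE 0.18), again with no overlap. Slc7a11, which imports cystine in exchange for glutamate, had 7.90, 18.8 and 29.4 CPM in the ADI-PEG20 tumors, against 5.77, 8.56 and 13.1 CPM in the NT tumors. ADI-PEG20 1 was the lowest of its group here, and the log2 difference of 0.92 (SE 0.42) was 1.44 (SE 0.35) without it. The leucine exporter Slc43a1 had 10.3, 2.38 and 3.33 CPM in the ADI-PEG20 tumors, against 7.65, 7.09 and 4.75 CPM in the NT tumors. The groups overlapped, as ADI-PEG20 1 was the highest library. Its log2 difference was -0.55 with all libraries, and it was lower by 1.18 without ADI-PEG20 1 (SE 0.34).

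The enzymes that make or use arginine were near even between the groups. Of 21 measured genes of arginine and urea cycle metabolism, 11 were higher and 10 lower, none in either direction at an unadjusted p under 0.05, with a median of 0.04. Asl had 13.9, 14.2 and 9.21 CPM in the ADI-PEG20 tumors, against 9.81, 18.0 and 9.28 CPM in the NT tumors. Arg1, the arginase that splits arginine to ornithine and urea, had 3.93, 3.88 and 2.33 CPM in the ADI-PEG20 tumors, against 3.82, 35.0 and 2.65 CPM in the NT tumors, where NT 2 alone was high. For the neuronal nitric oxide synthase Nos1 the groups did not overlap, with 8.62, 5.10 and 6.64 CPM in the ADI-PEG20 tumors against 1.5, 2.85 and 4.88 CPM in the NT tumors (log2 difference 1.27, SE 0.82). Nos1 was the 1 gene of these 21 without overlap, while 5.57% of all genes were higher without overlap.

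ATF4 targets that make amino acids and one-carbon units were higher with ADI-PEG20, whereas transcripts of the stress regulators were close to even. Among the 12 enzymes, 11 were higher, with a median log2 difference of 0.51, and 6 were higher and none lower at an unadjusted p under 0.05. Without ADI-PEG20 1 all 12 were higher, with a median of 0.68 and 8 at that p. Leaving out each of the other 5 libraries in turn gave medians of 0.44 to 0.58, and 4 such genes without NT 1. Among the 15 regulators the median was 0.12, with 1 gene (Trib3) under that p. Among 19 further outputs, such as tRNA synthetases and secreted factors, it was 0.08, with 2 (Fam129a and Sesn2).

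Cth, which makes cysteine from cystathionine, had 6.87, 22 and 26.6 CPM in the ADI-PEG20 tumors, against 3.30, 3.22 and 6.15 CPM in the NT tumors. Every ADI-PEG20 library was above the NT libraries, ADI-PEG20 1 only just, and the log2 difference was 1.98 (SE 0.52), or 2.59 without ADI-PEG20 1. Gpt2, the mitochondrial alanine aminotransferase, had 67.5, 56.6 and 57.8 CPM in the ADI-PEG20 tumors, against 27.6, 25.9 and 42.8 CPM in the NT tumors (0.95, SE 0.22). For the serine enzyme Psph the values were 16.2, 28.5 and 30.9 CPM in the ADI-PEG20 tumors and 11.8, 15.8 and 14.7 CPM in the NT tumors (0.79, SE 0.26). Neither gene overlapped between groups, and their differences were 0.87 and 1.09 without ADI-PEG20 1. Asparagine synthetase Asns and the first serine enzyme Phgdh overlapped with all 6 libraries, and their log2 differences of 0.49 and 0.35 were 0.84 and 0.59 without ADI-PEG20 1. Aldh1l2, a mitochondrial folate enzyme, had 68.1, 92.0 and 99.1 CPM in the ADI-PEG20 tumors, against 29.9, 38.8 and 68.5 CPM in the NT tumors, where NT 3 just exceeded ADI-PEG20 1 (0.99, SE 0.30).

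Trib3, a pseudokinase that restrains ATF4, had 22.5, 21.0 and 37.4 CPM in the ADI-PEG20 tumors, against 3.10, 15.7 and 11.9 CPM in the NT tumors, without overlap (log2 difference 1.64, SE 0.49). Fam129a, a stress-induced protein also named Niban, had 62.5, 66.3 and 68.2 CPM in the ADI-PEG20 tumors, against 21.1, 28.8 and 36.3 CPM in the NT tumors. The 3 treated libraries were nearly equal and all well above the NT libraries (1.23, SE 0.24). Sesn2, a leucine sensor that restrains mTORC1, was higher by 0.77 (SE 0.22), also with no overlap. In the absence of ADI-PEG20 1 the log2 differences were 1.75 for Trib3, 1.26 for Fam129a and 0.71 for Sesn2. Atf4 itself had 204, 231 and 237 CPM in the ADI-PEG20 tumors, against 238, 266 and 216 CPM in the NT tumors. Its log2 difference was -0.10 (SE 0.15), and those of Ddit3 and Atf3, further stress transcription factors, were -0.14 (SE 0.21) and -0.57 (SE 0.53). Atf3 was high in NT 2 alone, at 32.6 CPM against 9.09 and 7.49 CPM in NT 1 and NT 3.

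**Figure D1:**
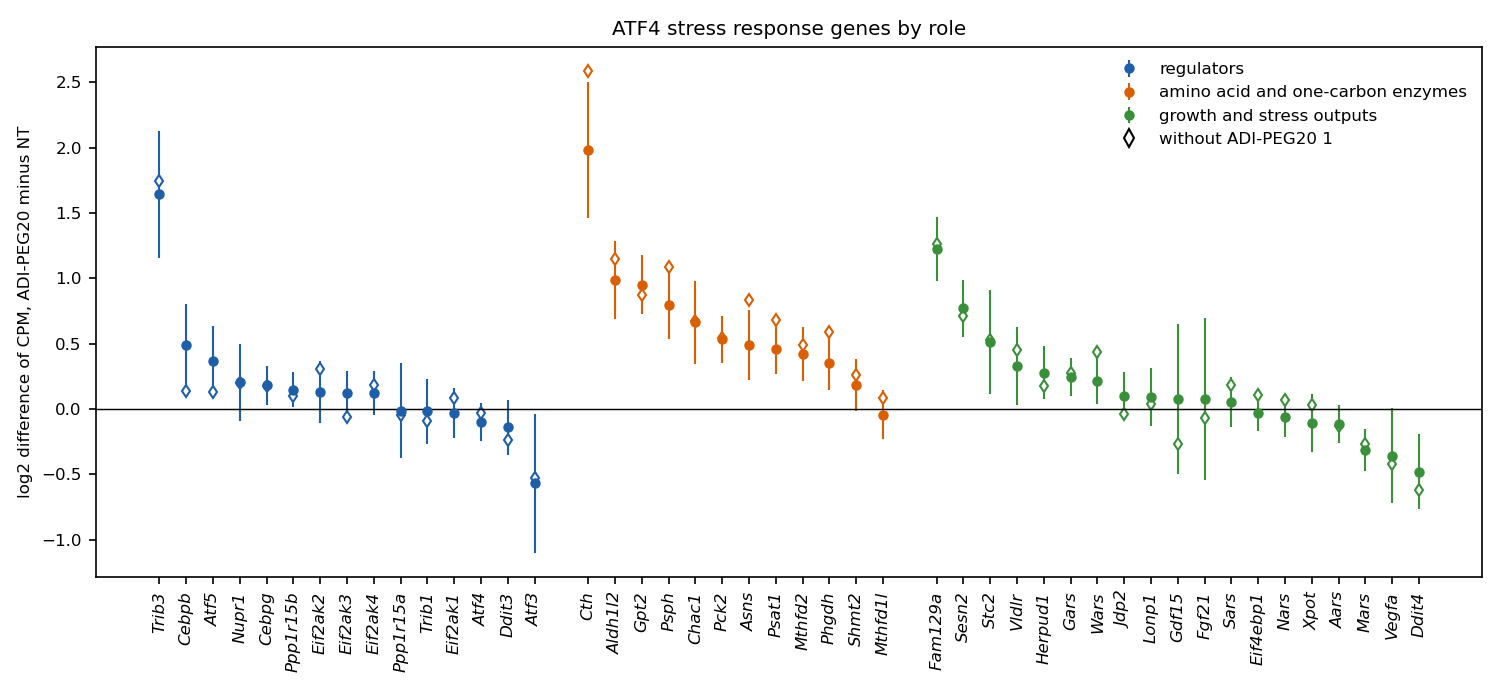
Log2 difference of CPM, ADI-PEG20 minus NT, for 46 ATF4 stress response genes grouped by role. Filled points with bars are the difference and its SE from the fit over all libraries, and open diamonds are the difference without ADI-PEG20 1. The enzymes lie mostly above 0, up to 1.98 for Cth, while Atf4, Ddit3 and Atf3 lie below 0.

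ATF4 binds with C/EBP partners at a composite element, searched here as TGATGNAA on both strands in the 250 bases before and 50 bases after each gene's start (RefSeq, GRCm38.p6). Of 27025 genes with such a promoter, 4.51% held it. Of the measured members, 12 of 37 genes on the ATF4 list with a promoter in that table held it, as did 3 of 19 amino acid transporters. Of the top 15 higher genes by p, 12 had a promoter in the table and 3 held the element (Ank2, Avil and Frmd4b), against none of 9 such genes among the top 15 lower. Cth, Gpt2, Psph, Aldh1l2, Sesn2 and Slc7a3, which were higher with ADI-PEG20, were not among the holders on these lists. Whether each of them had a promoter in the table was not recorded. Windows around the element are shown for 6 genes that held it, all of them higher with ADI-PEG20. They run 5′ to 3′ on the gene's strand, with the element in capitals. Capitals in the reverse orientation read TTNCATCA. A match says only that these letters are present, and differences between these small counts were not tested.
Trib3 (chr2:152344028-152344057, minus strand): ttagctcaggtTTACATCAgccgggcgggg
Pck2 (chr14:55540137-55540196, plus strand): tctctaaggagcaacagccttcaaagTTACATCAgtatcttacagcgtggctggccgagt
Chac1 (chr2:119351023-119351082, plus strand): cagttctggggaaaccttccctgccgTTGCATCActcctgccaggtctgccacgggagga
Asns (chr6:7693210-7693269, minus strand): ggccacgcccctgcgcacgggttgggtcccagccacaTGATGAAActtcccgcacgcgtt
Slc7a11 (chr3:50443646-50443705, minus strand): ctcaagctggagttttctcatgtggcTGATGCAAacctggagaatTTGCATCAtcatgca
Avil (chr10:127000649-127000708, plus strand): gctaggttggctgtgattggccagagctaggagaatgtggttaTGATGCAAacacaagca

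Slc7a11 held 2 copies facing each other, and the other 5 genes held 1. Pck2, the mitochondrial enzyme that makes phosphoenolpyruvate from oxaloacetate, had 59.7, 62.9 and 59.7 CPM in the ADI-PEG20 tumors, against 34.9, 49.6 and 42.8 CPM in the NT tumors, without overlap (log2 difference 0.53, SE 0.18). Chac1, which degrades glutathione, had 15.3, 11.8 and 20.6 CPM in the ADI-PEG20 tumors, against 6.01, 14.2 and 11 CPM in the NT tumors, which overlap (0.66, SE 0.32). The element was also present in the promoters of Atf3 and Herpud1, whose log2 differences were -0.57 and 0.28 with overlapping groups.

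Avil, which encodes the actin-binding protein advillin (chromosome 10, 127000709 to 127020994), ranked second by p and is on no stress list. It had 9.57, 12.8 and 8.47 CPM in the ADI-PEG20 tumors, against 2.70, 1.32 and 2.07 CPM in the NT tumors. The groups were far apart with or without ADI-PEG20 1, with log2 differences of 2.38 (SE 0.46) and 2.42. Ank2, an ankyrin that ties membrane proteins to the spectrin skeleton, had 93.9, 93.7 and 89.8 CPM in the ADI-PEG20 tumors, against 56.4, 53.4 and 67.0 CPM in the NT tumors. That difference was small but even, at 0.66 on the log2 scale (SE 0.14). Frmd4b, a FERM-domain scaffold protein, had 58.5, 48.8 and 59.2 CPM in the ADI-PEG20 tumors, against 22.3, 30.2 and 37.6 CPM in the NT tumors (0.91, SE 0.20).

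Further genes outside the stress, immune and glycolysis lists were higher with and without ADI-PEG20 1. Panx1, a channel that releases ATP, had 21.7, 21.1 and 19.2 CPM in the ADI-PEG20 tumors, against 12.4, 11.1 and 11.6 CPM in the NT tumors (log2 difference 0.82, SE 0.19). Rab3d, a GTPase of regulated secretion, had 26.2, 14.9 and 18.6 CPM in the ADI-PEG20 tumors, against 6.53, 10.5 and 9.85 CPM in the NT tumors (1.14, SE 0.25). Oplah, which returns 5-oxoproline to glutamate in glutathione turnover, had 26.1, 16.5 and 23 CPM in the ADI-PEG20 tumors, against 10.7, 8.07 and 13.7 CPM in the NT tumors (1.02, SE 0.23). In all 3 genes the groups did not overlap. Dlk2, an EGF-repeat membrane protein, was scarce at 6.63, 3.34 and 4.42 CPM in the ADI-PEG20 tumors, against 0.420, 1.56 and 0.797 CPM in the NT tumors (2.52, SE 0.54). Abcg3, an ATP-binding cassette transporter gene, was higher by 1.27 with ADI-PEG20 (SE 0.28), and by 1.54 without ADI-PEG20 1. Gbgt1, a glycolipid glycosyltransferase, was higher by 1.48 (SE 0.35). Arxes2 was higher by 1.94 (SE 0.45), and reads from its near-identical neighbour Arxes1 could have been split between them in counting. Aplnr, the apelin receptor of endothelium, had 47.1, 39.3 and 52.0 CPM in the ADI-PEG20 tumors, against 16.6, 13.3 and 33.8 CPM in the NT tumors (1.23, SE 0.27). It passed over all genes without NT 3, its highest NT library (adjusted p = 0.039), and with none of the other 12 alternatives. Over 21 endothelial genes the median was 0.14 (-0.09 without NT 1 and -0.04 without ADI-PEG20 3), and Aplnr was the 1 gene of that list at an unadjusted p under 0.05.

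**Figure D2:**
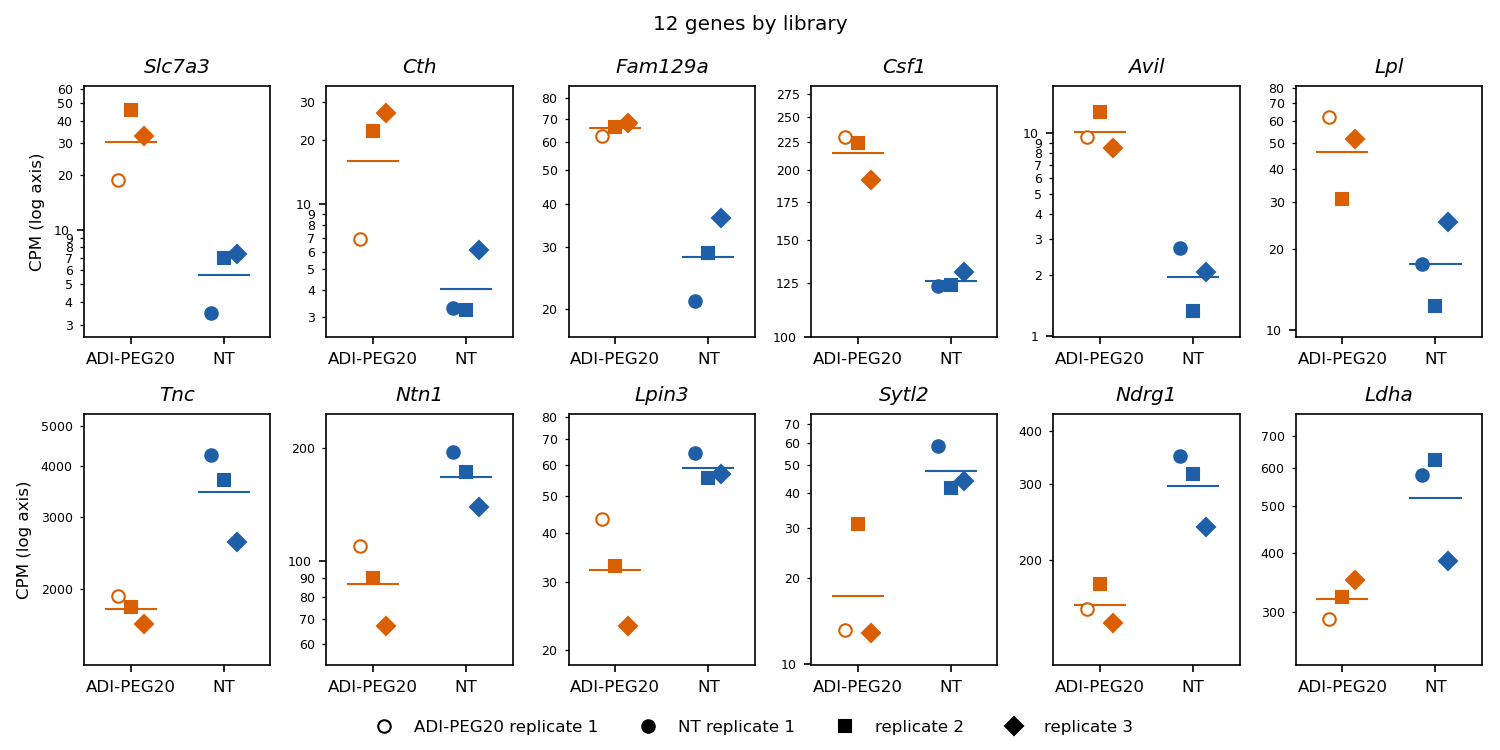
CPM (log axis) of 12 genes in each library, with ADI-PEG20 on the left and NT on the right of each panel. Horizontal lines are means of log2 CPM, the open circle is ADI-PEG20 1, and the 6 upper genes lie above and the 6 lower genes below the NT libraries in all 3 ADI-PEG20 libraries.

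Next come the lower genes with the smallest p, with counts for the lists that hold some of them. The 42 genes of matrix glycoproteins and proteoglycans had a median log2 difference of 0.07, with 24 higher, and 4 higher and 2 lower at an unadjusted p under 0.05. The 31 axon guidance genes had a median of -0.07, with 2 higher and 3 lower at that p. Tenascin C (Tnc, chromosome 4, 63959785 to 64047015), a matrix glycoprotein of developing and injured tissue, had 1916, 1804 and 1636 CPM in the ADI-PEG20 tumors, against 4262, 3685 and 2601 CPM in the NT tumors. All treated libraries were below the lowest NT library, NT 3, and the log2 difference was -0.95 (SE 0.21), or -1.0 without ADI-PEG20 1. Netrin 1 (Ntn1), a guidance and survival ligand, had 110, 89.8 and 67.0 CPM in the ADI-PEG20 tumors, against 194, 172 and 139 CPM in the NT tumors. Its log2 difference was -0.94 (SE 0.23), with no overlap. Gnao1, the alpha subunit of the G protein Go, had 63.2, 55.9 and 58.9 CPM in the ADI-PEG20 tumors, against 107, 95.9 and 86.9 CPM in the NT tumors (-0.70, SE 0.17). Sytl2, a Rab27 effector of vesicle docking, had 13.2, 31.2 and 12.8 CPM in the ADI-PEG20 tumors, against 58.7, 41.8 and 44.1 CPM in the NT tumors (-1.45, SE 0.36).

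Lpin3, a phosphatidate phosphatase, had 43.5, 32.9 and 23.1 CPM in the ADI-PEG20 tumors, against 64.4, 55.6 and 56.9 CPM in the NT tumors. It was lower by 0.87 on the log2 scale (SE 0.20) with all libraries and by 1.09 without ADI-PEG20 1. Fabp5, a fatty acid carrier, had 16.2, 20.8 and 18.3 CPM in the ADI-PEG20 tumors, against 48.9, 36.0 and 33.8 CPM in the NT tumors (log2 difference -1.09, SE 0.25). Apob, the apolipoprotein of low-density lipoproteins, had 0.675, 1.93 and 0.631 CPM in the ADI-PEG20 tumors, against 7.65, 7.52 and 2.96 CPM in the NT tumors (-2.56, SE 0.51). Lipoprotein lipase (Lpl), which frees fatty acids from lipoproteins, stood on the other side, at 62.5, 30.7 and 51.6 CPM in the ADI-PEG20 tumors against 17.7, 12.2 and 25.3 CPM in the NT tumors (1.39, SE 0.33). Over the 37 measured genes of lipid synthesis, storage and lipoproteins the median was -0.01, with 5 higher and 3 lower at an unadjusted p under 0.05. Pcolce2, an enhancer of procollagen processing, was lower by 1.2 (SE 0.28), Dnah6, an axonemal dynein, by 1.2 (SE 0.28), and Itgb2l, an integrin beta chain, by 1.36 (SE 0.34), each without overlap.

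Cell cycle transcripts leaned lower. None of the 31 G2 and mitosis genes was higher with ADI-PEG20, with a median log2 difference of -0.32 and 3 lower at an unadjusted p under 0.05 (Depdc1b, Aurka and Plk1). Without ADI-PEG20 1, 2 of the 31 were higher and the median was -0.19, again with 3 lower. Depdc1b, a DEP-domain protein of dividing cells, had 1.47, 2.29 and 1.72 CPM in the ADI-PEG20 tumors, against 5.53, 4.70 and 5.07 CPM in the NT tumors (-1.5, SE 0.30). The mitotic kinase Plk1 had 23.9, 34.5 and 22.1 CPM in the ADI-PEG20 tumors, against 38.5, 35.6 and 36.8 CPM in the NT tumors (-0.49, SE 0.19). Leaving out ADI-PEG20 2 gave a median of -0.45 with 9 lower, leaving out NT 3 gave -0.44 with 8, leaving out NT 2 gave -0.36 with 5, and leaving out NT 1 gave -0.21 with 2. In the same order, 997, 716, 584 and 285 of all genes were lower at that p, against 512 with all 6 libraries.

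Glycolysis and hypoxia genes leaned lower. The glycolysis list summed to 4694, 5214 and 5726 CPM in the ADI-PEG20 tumors, against 8530, 7863 and 5388 CPM in the NT tumors, with NT 3 inside the ADI-PEG20 range. Of 23 glycolysis genes, 3 were higher, the median was -0.40, and 8 were lower and none higher at an unadjusted p under 0.05. Of 25 hypoxia response genes, 4 were higher, the median was -0.42, and 7 were lower and none higher. Without ADI-PEG20 1 the medians were -0.39 and -0.42, with 6 and 5 lower. Leaving out NT 2 left 2 lower glycolysis genes, leaving out NT 1 left 3, and leaving out NT 3 gave 14. In the same order, 584, 285 and 716 of all genes were lower at that p, against 512 with all 6 libraries. Lactate dehydrogenase Ldha had 291, 323 and 350 CPM in the ADI-PEG20 tumors, against 583, 626 and 384 CPM in the NT tumors. The groups did not overlap, but NT 3 was close to ADI-PEG20 3 (log2 difference -0.70, SE 0.21). The glucose transporter Slc2a1 had 92.9, 92.7 and 105 CPM in the ADI-PEG20 tumors, against 186, 282 and 139 CPM in the NT tumors (-1.01, SE 0.37). Ndrg1, a stress gene induced by low oxygen, had 154, 176 and 143 CPM in the ADI-PEG20 tumors, against 349, 316 and 238 CPM in the NT tumors (-0.92, SE 0.23). The collagen prolyl hydroxylases P4ha1 and P4ha2 were each lower by 0.71 (SE 0.19 and 0.18), without overlap.

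Immune transcripts were higher in the ADI-PEG20 tumors, and in bulk tumor RNA more cells of a type cannot be told apart from more RNA per cell. Of 34 genes of macrophages and monocytes, 31 were higher, the median log2 difference was 0.61, and 15 were higher and none lower at an unadjusted p under 0.05. Without ADI-PEG20 1 the median was 0.56 with 12 higher, and without NT 1 it was 0.41 with 9. The summed level of the list was 2930, 2283 and 2673 CPM in the ADI-PEG20 tumors, against 1638, 2011 and 1790 CPM in the NT tumors, without overlap. Csf1, the growth factor of macrophages, had 230, 224 and 192 CPM in the ADI-PEG20 tumors, against 124, 124 and 131 CPM in the NT tumors (0.76, SE 0.16). The lectin receptor Clec4a1 had 18.4, 15.2 and 16.8 CPM in the ADI-PEG20 tumors, against 4.50, 2.18 and 9.15 CPM in the NT tumors (1.90, SE 0.41). The high-affinity Fc receptor Fcgr1 had 41.1, 38.5 and 42.5 CPM in the ADI-PEG20 tumors, against 15.2, 13.0 and 28.5 CPM in the NT tumors, the highest of them again NT 3 (1.19, SE 0.26). Leaving out ADI-PEG20 1 gave 0.72 for Csf1, 1.84 for Clec4a1 and 1.19 for Fcgr1.

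All 9 MHC class II genes were higher, with a median of 1.63 and 8 at an unadjusted p under 0.05. Their summed level was 1126, 1408 and 1622 CPM in the ADI-PEG20 tumors, against 316, 225 and 753 CPM in the NT tumors. Ciita, the transactivator of class II genes, had 31.3, 33.0 and 30.6 CPM in the ADI-PEG20 tumors, against 7.81, 9.97 and 13.7 CPM in the NT tumors (1.63, SE 0.46). The medians without each library in turn were 1.36 to 1.97, with 6 to 8 genes at that p. Of 16 MHC class I genes, 15 were higher, with a median of 0.83 and 10 at that p. That count was 2 without NT 2, 4 without NT 1 and 13 without NT 3, and it was 8 with a median of 0.99 without ADI-PEG20 1. Of 33 interferon response genes, 32 were higher, with a median of 0.47 and 8 at that p. Their summed level was 1974, 1982 and 1730 CPM in the ADI-PEG20 tumors, against 1219, 982 and 2059 CPM in the NT tumors. The groups thus overlapped, with NT 3 the highest library. Only 2 of the 33 genes were higher without overlap, while 5.57% of all genes were. Leaving out NT 2 gave a median of 0.27 with 1 gene, and leaving out NT 3 gave 0.82 with 20. Leaving out NT 1 or any 1 of the ADI-PEG20 libraries gave 3 to 4 genes. Beside both lists, higher genes over all genes numbered 827 without NT 2, 497 without NT 1 and 1250 without NT 3. That total was 845 with all 6 libraries. Cxcl9, a chemokine that attracts T cells, had 23.7, 19.4 and 31.6 CPM in the ADI-PEG20 tumors, against 12, 4.70 and 13.4 CPM in the NT tumors (1.42, SE 0.45, or 1.45 without ADI-PEG20 1).

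Lymphocyte transcripts were scarce but mostly higher. The 24 measured T cell genes summed to 77.4, 79.9 and 72.2 CPM in the ADI-PEG20 tumors, against 36.2, 44.0 and 57.8 CPM in the NT tumors. Of these, 23 were higher, with a median of 1.11 and 5 at an unadjusted p under 0.05, or 2 without ADI-PEG20 1 or without NT 1, 3 without ADI-PEG20 2 and 8 without NT 3. On the scale of log2 of CPM plus 1 the median was 0.53. With those libraries left out in the same order, 626, 497, 1198 and 1250 of all genes were higher at that p. Cd4 had 9.65, 12.5 and 15.7 CPM in the ADI-PEG20 tumors, against 1.94, 2.92 and 8.19 CPM in the NT tumors (1.79, SE 0.59, or 1.97 without ADI-PEG20 1). The immunoglobulin heavy chain Ighm had 31.2, 14.2 and 16.9 CPM in the ADI-PEG20 tumors, against 4.38, 2.0 and 12.6 CPM in the NT tumors (2.03, SE 0.62, or 1.69 without ADI-PEG20 1). Of the 7 natural killer cell genes, 6 were higher, with a median of 0.53 and 2 at that p, and of the 10 neutrophil and mast cell genes 5 were higher, with a median of 0.01. Without ADI-PEG20 1 these medians were 1.0 and 0.55.

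**Figure D3:**
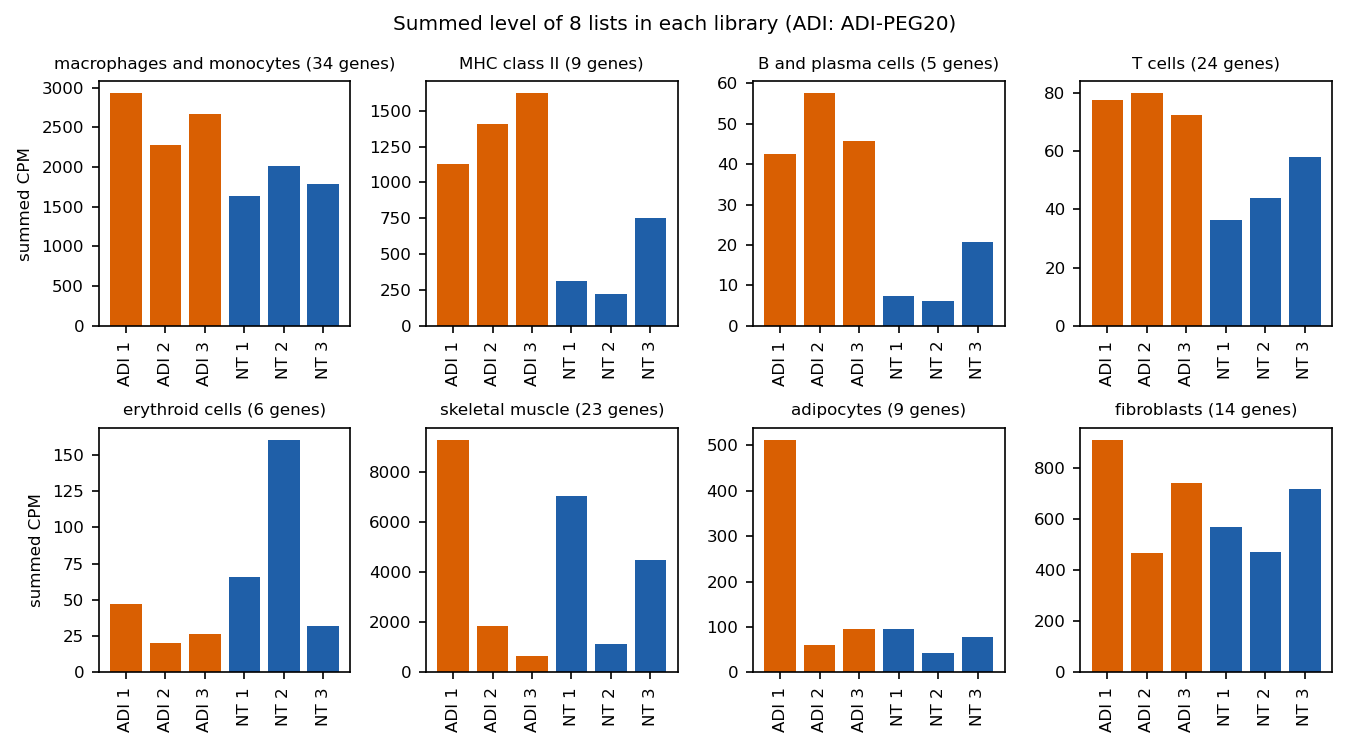
Summed CPM of 8 gene lists in each library, with the 3 ADI-PEG20 libraries (ADI) left of the 3 NT libraries. MHC class II genes sum to 1126 to 1622 CPM with ADI-PEG20 and 225 to 753 CPM without, while the muscle and adipocyte sums are highest in ADI-PEG20 1.

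Adipocyte transcripts were high in ADI-PEG20 1. Its 9 adipocyte genes summed to 513 CPM, against 60.6 and 94.7 CPM in ADI-PEG20 2 and 3 and 41.8 to 95.6 CPM in the NT tumors. The adipocyte median was 1.2 with that library and -0.07 without it. Defining markers went the same way, as Cfd was at 138 CPM in ADI-PEG20 1, against 2.86 and 4.72 CPM in the other ADI-PEG20 tumors and 4.46, 0.399 and 7.81 CPM in the NT tumors. Lpl and Pparg, which are members of that list, were higher by 1.18 and 1.07 without ADI-PEG20 1, and the part of adipocyte transcripts in those differences was not tested.

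Skeletal muscle genes summed to 9283, 1870 and 662 CPM in the ADI-PEG20 tumors, against 7019, 1120 and 4465 CPM in the NT tumors, so the groups overlapped widely. The median over 23 genes was -0.43 with 1 lower at an unadjusted p under 0.05, and its direction turned with the library left out. Leaving out ADI-PEG20 1 gave -1.74 with all 23 genes below 0 and 8 lower at that p, and leaving out NT 2 gave -1.38. Leaving out NT 1 gave 0.41 with 18 of 23 higher, leaving out ADI-PEG20 2 gave 0.09 with 14 higher, and leaving out ADI-PEG20 3 gave 0.50 with 21 higher. Titin (Ttn), the giant sarcomere protein, had 4973, 1318 and 318 CPM in the ADI-PEG20 tumors, against 3819, 696 and 3030 CPM in the NT tumors. Muscle transcript levels thus differed among tumors of the same group, and their part in the other differences was not tested. Hemoglobin and other erythroid genes (6 genes, none higher, median -1.56) summed to 47.1, 20.1 and 26.2 CPM in the ADI-PEG20 tumors, against 65.9, 160.4 and 31.9 CPM in the NT tumors, with NT 2 far above the rest.

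**Figure D4:**
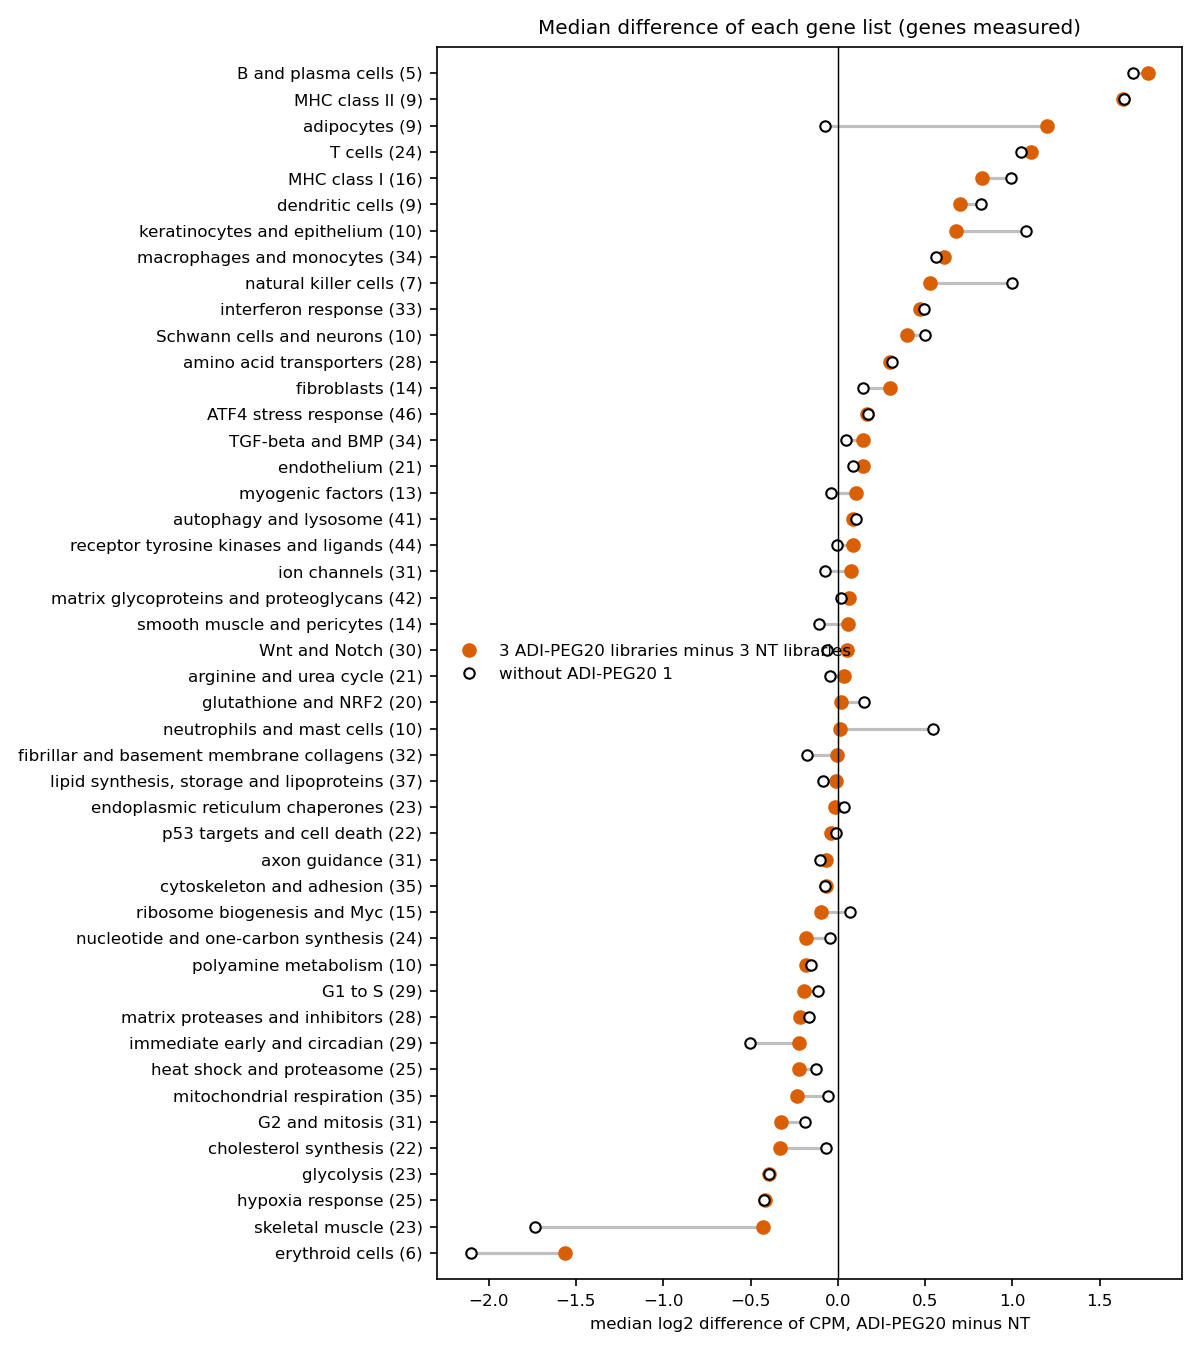
Median log2 difference of CPM, ADI-PEG20 minus NT, for 46 gene lists with the number of genes measured in brackets. Filled points use all 6 libraries and open points leave out ADI-PEG20 1. MHC class II, glycolysis and hypoxia lists keep their place, while adipocytes go to -0.07 and skeletal muscle to -1.74 without that library.

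Several other lists depended on single libraries. Cholesterol synthesis had a median of -0.33 with 3 of 22 genes lower at an unadjusted p under 0.05, and -0.07 with none lower and 1 higher without ADI-PEG20 1, and -0.18 with none lower without NT 1. For mitochondrial respiration the median of 35 genes was -0.23 with 3 lower, -0.06 with 1 lower without ADI-PEG20 1, and -0.11 with none lower without NT 1. Immediate early genes, which respond within minutes to growth factors and handling, had a median of -0.34 over 16 genes with 1 lower, and -0.57 with 4 lower without ADI-PEG20 1. Without NT 2 their median was 0.01, with 9 higher and 7 lower and none under that p. Fosb, one of them, had 10.8, 4.11 and 2.15 CPM in the ADI-PEG20 tumors, against 8.85, 41.0 and 6.03 CPM in the NT tumors, with NT 2 again the highest. Glutathione and NRF2 genes had a median of 0.02 with 3 of 20 higher, 0.15 with 5 higher without ADI-PEG20 1, and -0.04 with 1 higher without ADI-PEG20 3. Nqo1, a quinone reductase and classic NRF2 target, had 7.67, 26.7 and 37.3 CPM in the ADI-PEG20 tumors, against 11.1, 7.83 and 16.8 CPM in the NT tumors. It was higher by 0.80 (SE 0.51) with all libraries and by 1.48 (SE 0.39) without ADI-PEG20 1. Gstm1, a glutathione transferase, had 49.6, 44.7 and 42.2 CPM in the ADI-PEG20 tumors, against 38.9, 22.6 and 31.0 CPM in the NT tumors (0.59, SE 0.19), and its close paralogs may share reads with it.

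Among genes of p53 targets and cell death, Casp1, the inflammatory caspase, was higher by 1.37 (SE 0.38), whereas Mdm2 and Zmat3, classic p53 targets, were lower by 0.50 (SE 0.17) and 0.44 (SE 0.14). All 3 had groups that did not overlap, and the median of the 22 genes was -0.04. Lysosomal enzyme and membrane genes leaned higher, 15 of 17 with a median of 0.13, and all 17 with a median of 0.27 without ADI-PEG20 1, with 3 higher at an unadjusted p under 0.05 in both cases. That count was 0 without NT 1, 1 without NT 2 and 0 without ADI-PEG20 3, where the median was 0.04. Endoplasmic reticulum chaperones, with a median of -0.02 over 23 genes and none under that p in either direction, were close to even.

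The authors' deposited table of KEGG gene sets for this comparison covers 246 sets, of which 15 had an adjusted p under 0.05, all with a statistic above 0. The smallest adjusted p in the authors' deposited table was 5.78e-05, shared by cell adhesion molecules, antigen processing and presentation, and hematopoietic cell lineage. Others included cytokine receptor interaction, phagosome and natural killer cell cytotoxicity. Metabolism of xenobiotics by cytochrome P450 (adjusted p = 0.046 in the authors' deposited table) was of another kind. From the sample columns, 24 of its 33 matched genes were higher, with a median of 0.50, and 4 were higher and none lower at an unadjusted p under 0.05. Without ADI-PEG20 1 its median was 0.53 with 8 higher. No set with a statistic below 0 passed in the authors' deposited table, where the smallest adjusted p was 0.23. That set, cell cycle, had an unadjusted p of 0.00094 in the authors' deposited table. Natural killer cell cytotoxicity, which passed, had a larger unadjusted p there, 0.0013 (adjusted p = 0.031). Adjusted p-values of sets above and below 0 are therefore not on the same scale.

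The effect of ADI-PEG20 in the other 6 tumors, combined treatment minus CQ alone, shares no library with the comparison above. There, 508 genes were higher (3.11%) and 599 lower (3.67%) at an unadjusted p under 0.05, and none passed over all genes (smallest adjusted p 0.099). Of the 845 genes higher with ADI-PEG20 alone, 608 (72.0%) were higher there as well and 99 (11.7%) at an unadjusted p under 0.05. Of the 512 lower genes, 337 (65.8%) were lower there as well and 54 (10.5%) at that p. Both comparisons take the spread of a gene from the same fit. A gene with a small spread thus reaches a small p more easily in both, and the percentages at that p are not independent of the first comparison. For the 669 genes that stayed without ADI-PEG20 1, the shares with the same direction were 80.5% of the 435 higher and 82.1% of the 234 lower genes, against 51.4% higher and 48.6% lower among all genes. Among the top 15 by p in each direction, all 15 higher genes were higher there and 14 of the 15 lower genes were lower.

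Slc7a3 had 2.01 (SE 0.47) in those tumors, Cth 2.18, Avil 1.52, Lpl 1.63 and Psph 0.72 (log2 differences, combined treatment minus CQ). Tnc had -0.93, Ntn1 -1.14, Gnao1 -0.81, Sytl2 -1.34 and Lpin3 -0.74. The 12 ATF4 enzymes had a median of 0.58 there. Amino acid transporters as a list had 0.07 there, with 17 of 28 higher, against 0.30 with 23 higher for ADI-PEG20 alone. G2 and mitosis genes had -0.09 there, against -0.32. Other differences were not seen at that size. Apob had 0.01 with CQ against -2.56 without (interaction, adjusted p = 0.82 in limma), Ndrg1 -0.05 against -0.92, and Aplnr 0.11 against 1.23. The glycolysis list had a median of 0.11 there and the hypoxia list 0.11, the T cell list -0.33, the interferon list -0.22 and the MHC class I list -0.04, while macrophage genes had 0.59 and MHC class II genes 0.44. The interaction test of these differences gave no gene with an adjusted p under 0.05 (smallest 0.82), so no gene is shown to respond differently with CQ.

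**Figure D5:**
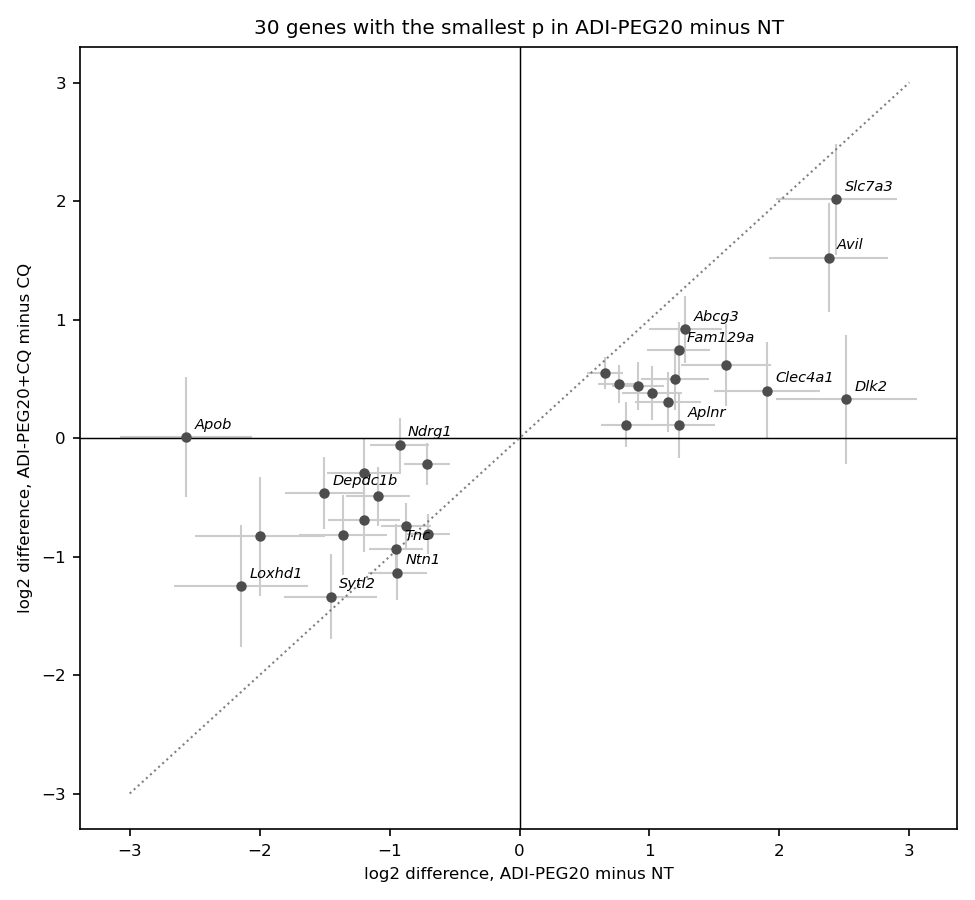
Log2 difference of the 30 genes with the smallest p, ADI-PEG20 minus NT on the horizontal axis and ADI-PEG20+CQ minus CQ on the vertical axis, with SE bars and a dotted line of equal values. Slc7a3 and Avil are high on both axes, and Apob lies at 0.01 on the vertical axis.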

How the data were processed

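Total RNA from frozen tumors was sequenced after depletion of ribosomal RNA, per the labels' protocols. The build was mm10, and the authors' tools, with no role or order stated per the submitters' processing notes, were limma, edgeR, Salmon 0.8.2, featureCounts 1.4.6-p5, Subread, STAR 2.5.1a and bcl2fastq. The authors deposited log2 CPM per gene and library in 1 table, with a signed linear fold score, p-values and adjusted p-values of their own comparisons. They also deposited gene set tables with a score and a p-value per set, whose score is headed as a mean log2 fold change but has the size of a test statistic. In the authors' deposited table of genes, 949 genes had an unadjusted p under 0.05 for this comparison, and none passed after adjustment (smallest 0.857).

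Of 16386 lines, the first was kept for each of 16335 genes. Whole reads were recovered from the deposited log2 CPM (offset 0.5, 100% of values under 2000 reads whole within 0.02), and the least abundant gene had 85 reads over all libraries, so low genes rest on few reads. CPM was computed back from the deposited values. Differences were tested with limma 3.58.1 in R 4.3.3 (moderated statistics with a trend, two-sided, Benjamini-Hochberg over all genes) in 1 fit of 12 libraries and 4 group means, checked on simulated data. Levels in CPM are not scaled by gene length and were not compared between genes. Named genes were the 15 with the smallest p in each direction, the 12 in each direction outside the stress, immune and glycolysis lists that also passed without ADI-PEG20 1, up to 6 per list, members of the arginine, transporter and ATF4 lists, and label checks. The members and the lists were chosen with earlier results of these data known.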

Additional observations from a re-analysis of the deposited data

How the results depend on the processing

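Genes with an adjusted p under 0.05 for ADI-PEG20 minus NT numbered 0 in 12 of 13 alternatives, and 0 to 1 when each library was left out. At an unadjusted p under 0.05, leaving out each library gave 497 to 1250 higher genes and 285 to 997 lower genes. Fitting only the 6 libraries gave 591 higher and 247 lower genes. Voom weights on recovered reads gave 837 and 493, library quality weights 634 and 406, log2 of CPM plus 1 837 and 545, and a mean of at least 1 CPM 801 and 483. For ADI-PEG20+CQ minus CQ, library quality weights gave 15 genes with an adjusted p under 0.05, against 0 with the others, and the interaction gave 0 with all of them. The cause was not tested. With the replicate block, 0 genes passed (smallest adjusted p 0.060), with 1011 higher and 590 lower at an unadjusted p under 0.05. Over all genes, deviations of same-numbered ADI-PEG20 and NT libraries correlated at -0.016, 0.0068 and 0.058. Differently numbered ones correlated at -0.082 to 0.068. The labels do not pair libraries by number, and whether same-numbered libraries share more than the number was not tested gene by gene.

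Of 1040 values of 80 named genes under the alternatives, 1031 kept their direction and their side of the threshold and 8 reversed, all when 1 library was left out. Over the libraries left out in turn, the log2 difference ranged from -1.81 to 0.050 for Arg1 (highest without NT 2), from -0.97 to 0.093 for Atf3 (highest without NT 2), from -0.24 to 0.033 for Ddit3 (highest without ADI-PEG20 3) and from -1.63 to 0.35 for Ttn (highest without ADI-PEG20 3). Asl ranged from -0.12 (without NT 3) to 0.35 (without NT 2). Of 598 list medians, 592 moved by less than 1 SD of the list's mean level between libraries of a group. That limit is wide for lists that differ strongly between libraries. The adipocyte median, 1.2 with all libraries and -0.07 without ADI-PEG20 1, stayed within it. The T cell median was 0.53 with log2 of CPM plus 1, and the glycolysis median -0.61 without NT 3. With 3 libraries a group and a lowest depth of 15501998 reads, small differences in scarce genes could not be resolved.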

Other observations

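Krt14, a keratin of basal epithelium, had 32.5, 22 and 24.6 CPM in the ADI-PEG20 tumors, against 3.30, 3.96 and 14.8 CPM in the NT tumors (log2 difference 2.17, SE 0.59), without overlap. In the other tumors, ADI-PEG20+CQ minus CQ, its log2 difference was 2.0. The list it stands on, 10 genes of keratinocytes and epithelium, had 6 higher and 4 lower with a median of 0.68, and 1 higher at an unadjusted p under 0.05. Without NT 1 the median of that list was -0.36, with 8 of 10 lower. Sema4d, a semaphorin also found on lymphocytes, had 77.9, 83.2 and 66.3 CPM in the ADI-PEG20 tumors, against 28.4, 25.8 and 59.3 CPM in the NT tumors (1.10, SE 0.36), with NT 3 closest to the treated libraries. The morphogen Wnt5a had 49.3, 58.6 and 62.3 CPM in the ADI-PEG20 tumors, against 67.5, 81.9 and 79.0 CPM in the NT tumors (-0.43, SE 0.14). Inhba, the beta A subunit of activin, had 38.6, 47.7 and 45.2 CPM in the ADI-PEG20 tumors, against 59.3, 59.1 and 57.6 CPM in the NT tumors (-0.43, SE 0.13). None of these 4 genes passed over all genes. Of 12 semaphorins, 5 were higher and 7 lower (median -0.23), with 1 higher and 2 lower at an unadjusted p under 0.05. Of 18 Wnt genes, 10 were higher and 8 lower (median 0.05), with 1 higher and 1 lower at that p. Of 34 TGF-beta and BMP genes, 23 were higher and 11 lower (median 0.14), with 5 higher and 2 lower at that p.

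Genes of some chromosomes shifted together in single libraries, measured as the median over a chromosome's genes of the log2 level minus its mean over the 12 libraries. Of 240 such medians, 90.4% lay within 0.1 of 0 on the log2 scale. The highest was 0.369, for chromosome 10 in NT 1, and the lowest was -0.258, for chromosome X in ADI-PEG20 1. For the 767 genes of chromosome 10, the median log2 difference was -0.13 with all libraries and -0.015 without NT 1. At an unadjusted p under 0.05, 30 of them were higher and 46 lower, against 24 and 15 without NT 1. Over all 16335 genes, 845 were higher (5.17%) and 512 lower (3.13%) at that p, against 497 and 285 without NT 1. The fall in lower genes was therefore not confined to this chromosome. The part of these shifts in the values of single genes was not tested.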
